A study of Mus musculus with 44 samples.

Results

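The transcripts examined here encode 10 neuropeptide precursors of the hippocampus: Trh, Npy, Penk, Pdyn, Cck, Tac1, Tac2, Crh, Cartpt and Nts. They were the rows of the gene count table whose Ensembl identifier carries 1 of these symbols in the GENCODE annotation of GRCm38, 10 of 55335 genes, and all 10 were found. The genes were selected on earlier results of these libraries, the values of exercised against sedentary mice in the left hemisphere among them (Trh above all), so the left comparison is described below without a test. The other comparisons were tested, but their p-values may not be independent of that selection either. Ribosome-bound mRNA was isolated by TRAP-seq from male Emx1-NuTRAP mice, in which Emx1-IRES-Cre turns on the NuTRAP allele, which tags ribosomes and the nuclear envelope. Emx1-Cre is active in excitatory neurons for the most part, and also in progenitors and few interneurons. All groups carried both alleles. Wheel access of the early-life exercise (ELE) mice began at postnatal day 21 and ended at day 41, while sedentary mice were kept without a wheel. Simultaneous isolation (SIT) took RNA and nuclei together from both hippocampi of a mouse and gave 4 ELE and 4 sedentary libraries. In separate isolation 1 hemisphere was used for RNA and the other for nuclei, so left and right libraries came from different mice, 3 ELE and 3 sedentary for each side. Each library held between 45895097 and 65767802 counts. The study compared 3 ELE and 2 sedentary SIT libraries, and with the 12 separate libraries these make 17 libraries. Levels are given as CPM (counts scaled to a common library total) after TMM scaling. The RNA is bulk, so that a change in the number of cells that carry a transcript and a change in its amount per cell cannot be told apart.

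Neuropeptides are cut from precursor proteins, packed into dense-core vesicles and released when a neuron fires strongly. They act on G-protein-coupled receptors, often at a distance from the release site. In the hippocampus, enkephalin (from Penk) and dynorphin (from Pdyn) are opioid peptides found in granule cells and their mossy fibres. Neuropeptide Y (Npy) and somatostatin mark groups of interneurons, and granule cells switch on Npy, Penk and Trh after seizures or strong stimulation. Cholecystokinin (Cck) is made by a class of basket cells and also by pyramidal neurons. Thyrotropin-releasing hormone (Trh) and corticotropin-releasing hormone (Crh) are best known from the hypothalamus, and hippocampal Crh from interneurons. Tac1 encodes substance P and neurokinin A, Tac2 encodes neurokinin B, and Cartpt and Nts encode the CART peptide and neurotensin.

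Libraries that stood apart are described first because several values below rest on them. The SIT libraries NT6.304 (ELE), NT7.2.3 and NT7.2.4 (both sedentary) were not in the study's comparison. In NT6.304, 28 of 35 activity-regulated genes were at 2 times their median of the 17 libraries or more, with a summed level of 10296 CPM against 2100 to 3483 CPM in the 17. In the libraries NT7.2.3 and NT7.2.4, 12 interneuron markers summed to 1305 and 1324 CPM against 169 to 302 CPM in the other 18 libraries, with no marker at 0 in any library, and mitochondrial genes took 8.64% and 9.64% of counts. Both also stood apart for 4 microglia markers, at 137 and 144 CPM against 1.35 to 8.04 CPM, and for 4 oligodendrocyte markers, at 2481 and 2837 CPM against 995 to 1660 CPM. Their endothelial markers summed to 10.4 and 10.2 CPM, against 20.7 CPM in TG7.3.3 and 0.784 to 2.90 CPM in the remaining libraries. Within SIT the NT6 mice were in both groups, but the TG7.4 mice were all ELE and the NT7.2 mice all sedentary, and for these the first part of the mouse number and exercise cannot be told apart. The left ELE library TG9.1.4 and the right sedentary library TG9.1.1, both part of the study's comparisons, stood apart for Npy and Penk. The labelled tissue was checked with its markers, and 5 excitatory-neuron markers summed to 6011 to 9408 CPM and 6 hypothalamic markers to 1.13 to 3.13 CPM.

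Promoter sequence is shown for Trh and Npy, the members whose highest level lay farthest above the median, and for Tac2, which varied together with Npy and Penk. RefSeq promoter windows were found for 8 of the 10 genes, all but Penk and Crh. Each line gives the 250 bases before the annotated start in GRCm38.p6, 5′ to 3′ on the gene's strand, with TGACG or its reverse complement CGTCA, the shorter form of the cAMP response element (CRE), in capitals.
Trh, chr6:92244651-92244900, minus strand: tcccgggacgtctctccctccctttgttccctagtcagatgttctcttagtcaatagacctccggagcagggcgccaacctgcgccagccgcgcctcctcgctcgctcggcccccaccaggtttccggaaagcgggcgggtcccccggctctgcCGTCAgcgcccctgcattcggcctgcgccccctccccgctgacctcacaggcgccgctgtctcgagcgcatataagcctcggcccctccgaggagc
Npy, chr6:49822460-49822709, plus strand: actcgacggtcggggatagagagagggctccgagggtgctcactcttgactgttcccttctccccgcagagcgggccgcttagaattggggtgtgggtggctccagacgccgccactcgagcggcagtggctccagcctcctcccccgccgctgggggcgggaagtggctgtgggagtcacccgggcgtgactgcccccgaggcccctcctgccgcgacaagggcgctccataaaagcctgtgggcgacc
Tac2, chr10:127724228-127724477, plus strand: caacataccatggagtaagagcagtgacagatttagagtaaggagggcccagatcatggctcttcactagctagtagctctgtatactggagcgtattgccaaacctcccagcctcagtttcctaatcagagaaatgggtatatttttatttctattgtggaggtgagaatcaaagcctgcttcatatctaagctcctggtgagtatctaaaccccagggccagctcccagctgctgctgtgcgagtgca
Searched on both strands, the shorter motif was in the Trh window and not in the Npy or Tac2 window. It was in 17.8% of 32851 promoter windows of the same length and in 5 of the 9 windows of these genes (Pdyn has 2 windows), those of Cartpt, Cck, Nts, Tac1 and Trh. The full CRE TGACGTCA, which contains the shorter motif, was in 1.55% of all windows and in 1 of the 9, that of Cartpt. A match describes letters and was not taken as a binding site.

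Per length of exon, the precursors spanned more than 3 orders of magnitude. Cck was the most abundant, with a median of 281 CPM per kb over the 17 libraries. It was passed in 1 library, TG9.1.4, where Npy reached 532 CPM per kb. Penk followed at 20.9 CPM per kb, above Npy at 5.79 in 14 of 17 libraries. The next were Pdyn at 3.45, Nts at 2.33, Tac2 at 1.32 and Cartpt at 1.10 CPM per kb, and the ranges of each neighbouring pair overlapped. Crh at 0.130, Tac1 at 0.121 and Trh at 0.101 CPM per kb closed the order, and their ranges overlapped as well. The low members sat near the limit of detection, since 3 counts correspond to 0.0453 to 0.0657 CPM in these libraries. Trh had 3 counts or fewer in 4 of the 17 libraries, Crh in 3 and Tac1 in 1.

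**Figure D1:**
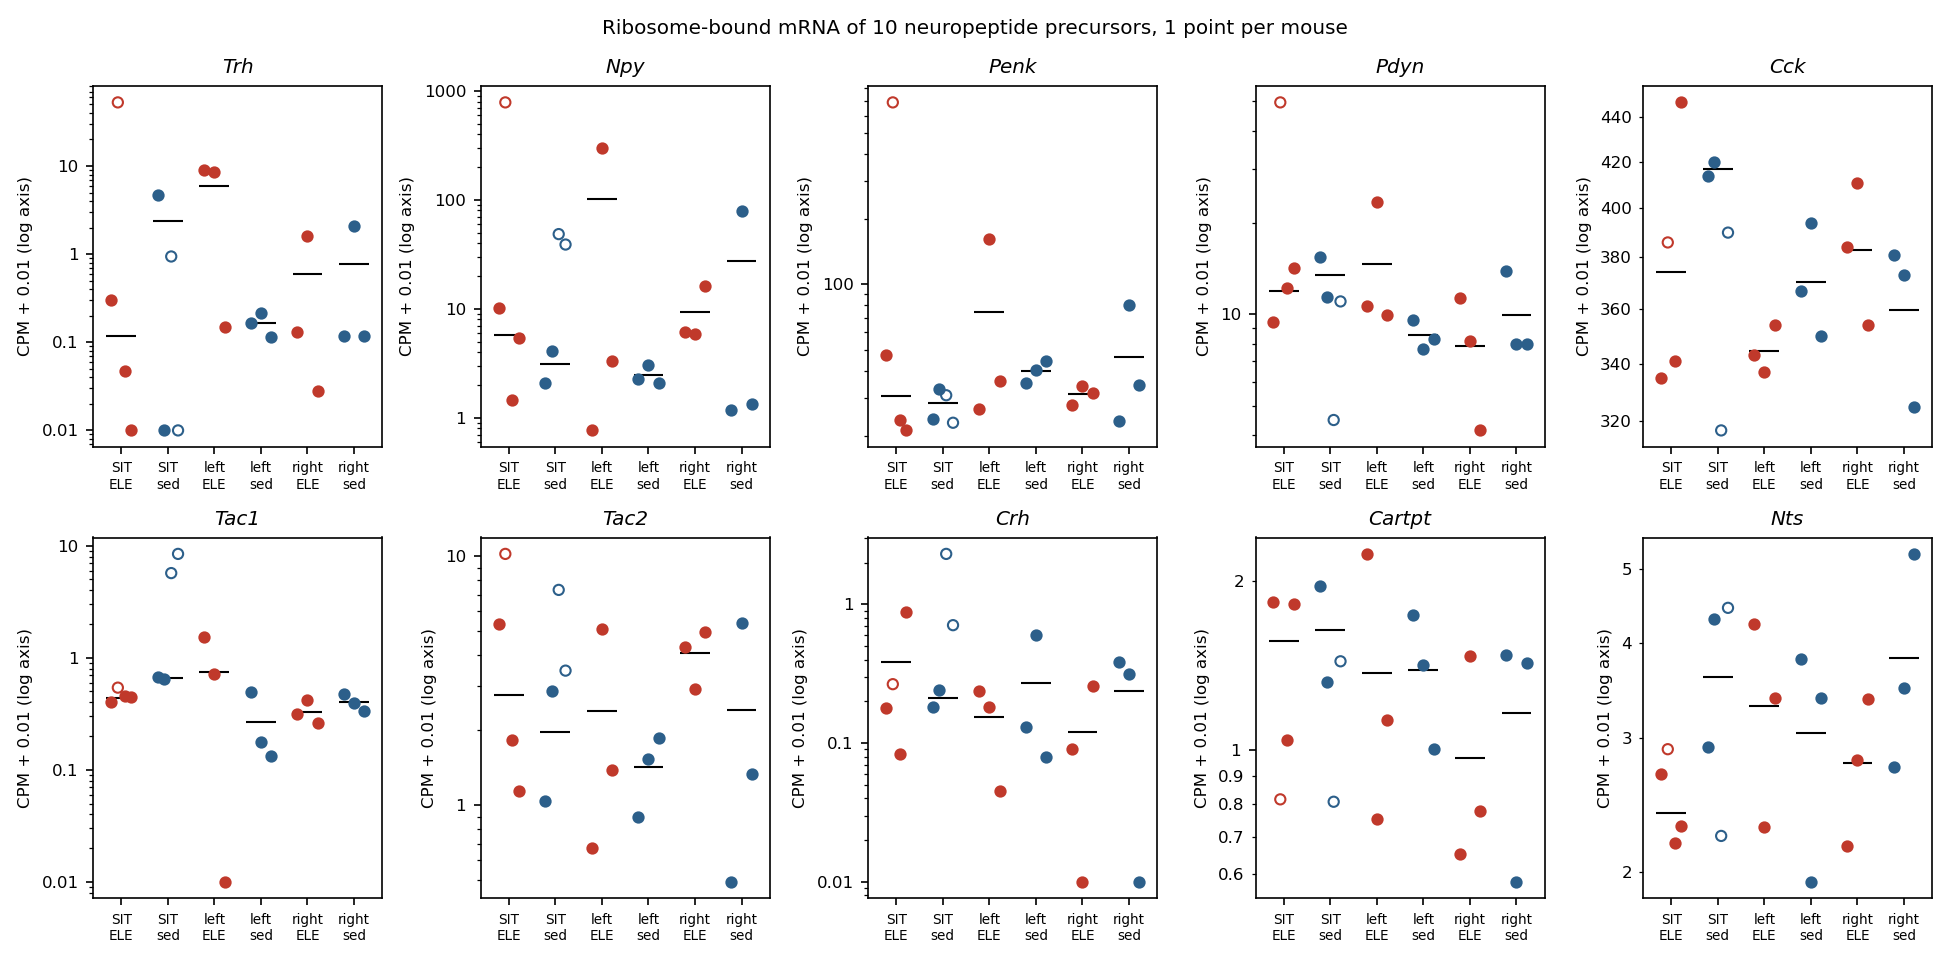
CPM (plus 0.01, log axis) of the 10 precursors in all 20 libraries, 1 point per mouse, red for ELE and blue for sedentary, open for the 3 libraries outside the study's comparison, with a black line at the mean of the filled points of each group. Single libraries lie far above their group for Trh, Npy and Penk, with Npy at 785, 301 and 79.1 CPM in NT6.304, TG9.1.4 and TG9.1.1, whereas Cck stays between 317 and 447 CPM.

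Trh lies on chromosome 6 (92242061 to 92244650, minus strand). In the left hippocampus its level was 9.01 CPM in TG7.3.2, 8.49 in TG9.1.4 and 0.140 in TG9.2.2 (ELE), and 0.156, 0.204 and 0.104 in TG7.3.4, TG9.1.2 and TG9.2.4 (sedentary). The means were 5.88 ± 4.98 and 0.155 ± 0.0499 CPM (SD, n = 3 each), a log2 fold change of 5.24 ± 1.23 (SE) for ELE. In counts, 597, 446 and 8 ELE reads stood against 9, 11 and 6. High levels in 2 of the 3 exercised mice carried the left difference, and the third lay within the range of the sedentary mice. Leaving out each library in turn gave fitted values from 4.76 to 5.81, given as a description because these values chose the gene. In the right hippocampus Trh was 0.121, 1.61 and 0.0178 CPM in ELE mice TG7.3.1, TG9.1.3 and TG9.2.1, and 0.109, 2.06 and 0.108 CPM in sedentary mice TG7.3.3, TG9.1.1 and TG9.2.3. Here 1 mouse of each group was high and Trh did not pass the filter on low counts, so it was not tested. In SIT the ELE libraries NT6.303, TG7.4.1 and TG7.4.2 had 0.289, 0.0367 and 0 CPM, and the sedentary libraries NT6.305 and NT6.306 had 4.71 and 0 CPM. The fitted log2 fold change was -4.39 ± 1.67 (edgeR quasi-likelihood test, unadjusted p = 0.0248, adjusted p = 0.905), in the direction opposite to the left. It rested on NT6.305, without which the fitted value was 5.59 (edgeR, unadjusted p = 0.293) against the remaining sedentary library at 0. It was not called without TG7.4.1 (-3.98) or TG7.4.2 (-3.83) either. DESeq2 gave -4.44 with an unadjusted p of 0.222. With all 8 SIT libraries, NT6.304 at 52.7 CPM among them, it was 3.23 (edgeR, unadjusted p = 0.151).

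Npy (chromosome 6, 49822710 to 49829507, plus strand) had the widest spread of the members over the 17 libraries, while over all 20 the highest level of Trh lay farther above its median (356 times against 165 times). Its level in left ELE mice TG7.3.2, TG9.1.4 and TG9.2.2 was 0.755, 301 and 3.28 CPM, and in left sedentary mice TG7.3.4, TG9.1.2 and TG9.2.4 it was 2.27, 3.03 and 2.07 CPM. The left log2 fold change of 5.36 ± 1.9 (SE) came from TG9.1.4 and was -0.29 without that library. Exercised mice of the left side held both the highest and the lowest Npy of the 17 libraries. In the right hippocampus ELE mice TG7.3.1, TG9.1.3 and TG9.2.1 had 6.15, 5.82 and 16.2 CPM and sedentary mice TG7.3.3, TG9.1.1 and TG9.2.3 had 1.16, 79.1 and 1.33 CPM. With all 6 the difference was -1.53 ± 1.22 (edgeR, unadjusted p = 0.241, adjusted p = 1.0). Without TG9.1.1, the library with the most Npy of its side, it turned to 2.90 (edgeR, unadjusted p = 6.95e-05, adjusted p = 0.136), with all 3 ELE libraries above both remaining sedentary ones. In SIT, Npy was 10.2, 1.45 and 5.40 CPM in ELE libraries NT6.303, TG7.4.1 and TG7.4.2, and 2.07 and 4.10 CPM in sedentary libraries NT6.305 and NT6.306. The SIT groups overlapped, with a log2 fold change of 0.88 ± 0.63 (edgeR, unadjusted p = 0.194, adjusted p = 0.965). It was 3.09 with all 8 SIT libraries (edgeR, unadjusted p = 0.101), and without TG7.4.1 it was called at 1.34 (edgeR, unadjusted p = 0.0152). Outside the study's comparison, Npy was 785 CPM in NT6.304, and 48.5 and 38.9 CPM in NT7.2.3 and NT7.2.4, which had high interneuron, microglia and oligodendrocyte markers. TG9.1.4 and TG9.1.1 had interneuron marker sums of 257 and 258 CPM, inside the range of the other libraries. Their 4 microglia markers summed to 6.01 and 4.12 CPM and those of NT6.304 to 8.04 CPM, above the 1.35 to 3.90 CPM of the other libraries apart from the NT7.2 mice. Csf1r made up most of these sums, at 3.46, 2.89 and 5.27 CPM in TG9.1.4, TG9.1.1 and NT6.304. P2ry12 was below its median in TG9.1.4 and TG9.1.1 (0.769 and 0.494 times), and so was Cx3cr1 in TG9.1.1 (0.782 times). Tmem119 was above its median in TG9.1.4, TG9.1.1 and NT6.304 (4.27, 1.71 and 3.86 times). The part of these marker lists in the levels was not tested.

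Penk (chromosome 4, 4133531 to 4138819, minus strand) encodes the enkephalin precursor and overlaps A830012C17Rik on the other strand, and the counting used strand. It was 162 CPM in TG9.1.4, 80.5 CPM in TG9.1.1 and 690 CPM in NT6.304, the same 3 libraries that led for Npy, and 21.2 to 47.0 CPM in the remaining libraries. The other left ELE mice TG7.3.2 and TG9.2.2 had 26.7 and 36.0 CPM and the left sedentary mice 35.0, 40.1 and 44.5 CPM. The left value of 0.90 ± 0.58 on the log2 scale was -0.34 without TG9.1.4. On the right, 27.7, 34.1 and 31.6 CPM in ELE mice overlapped 23.4, 80.5 and 34.2 CPM in sedentary mice (-0.56 ± 0.35, edgeR, unadjusted p = 0.145, adjusted p = 1.0). Without TG9.1.1 this was 0.10 (edgeR, unadjusted p = 0.555). In SIT, ELE libraries had 47.0, 23.7 and 21.2 CPM and sedentary libraries 24 and 32.8 CPM (0.11 ± 0.30, edgeR, unadjusted p = 0.731, adjusted p = 0.999). With all 8 SIT libraries, NT6.304 among them, it was 2.81 (edgeR, unadjusted p = 0.0186, adjusted p = 0.487). Unlike Npy, Penk was 30.8 and 23.0 CPM in NT7.2.3 and NT7.2.4, within the range of the other libraries.

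Tac2 (chromosome 10, 127724478 to 127731768, plus strand), the neurokinin B precursor, varied with Penk and Npy, from 0.482 to 5.38 CPM in the 17 libraries. On the right it was 4.32, 2.91 and 4.96 CPM in ELE mice TG7.3.1, TG9.1.3 and TG9.2.1 and 0.482, 5.38 and 1.33 CPM in sedentary mice TG7.3.3, TG9.1.1 and TG9.2.3. TG9.1.1 was again the highest, and the difference was 0.77 ± 0.65 on the log2 scale (edgeR, unadjusted p = 0.263, adjusted p = 1.0). It was 2.14 without TG9.1.1 (edgeR, unadjusted p = 0.000603, adjusted p = 0.355). In SIT it was 5.35, 1.82 and 1.13 CPM in ELE and 1.03 and 2.87 CPM in sedentary libraries, overlapping groups with a difference of 0.50 ± 0.65 (edgeR, unadjusted p = 0.460, adjusted p = 0.998). On the left it was 0.664, 5.10 and 1.38 CPM in TG7.3.2, TG9.1.4 and TG9.2.2, and 0.885, 1.52 and 1.85 CPM in TG7.3.4, TG9.1.2 and TG9.2.4. TG9.1.4 was the only left library above the sedentary mice.

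**Figure D2:**
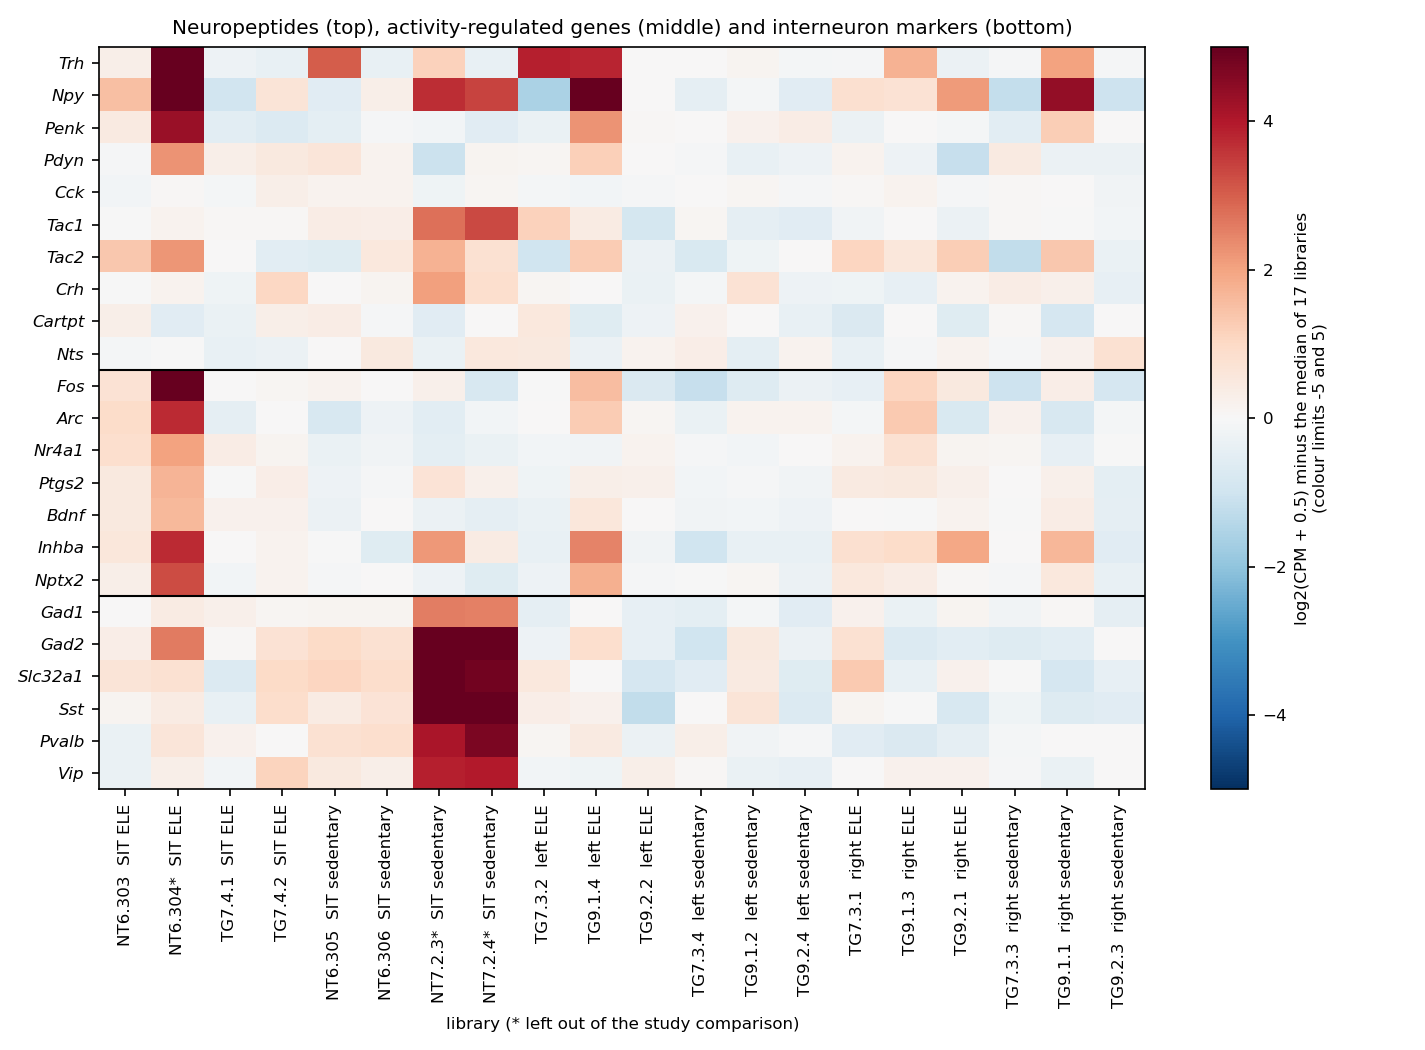
Each cell is log2(CPM + 0.5) of a gene in a library minus that gene's median over the 17 libraries of the study's comparisons, red for higher and blue for lower with colour limits at -5 and 5, for the 10 precursors, 7 activity-regulated genes and 6 interneuron markers. NT6.304 and TG9.1.4 share high Trh, Npy and Penk with high Fos and Nptx2, and NT7.2.3 and NT7.2.4 share high Npy and Tac1 with high Sst and Gad2.

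Activity-regulated genes were set beside these levels. The transcription factor gene Fos was 621 CPM in NT6.304 and 34.9 CPM in TG9.1.4, the highest of the 20 and of the 17 libraries, but 14.5 CPM in TG9.1.1, inside the range of the other libraries. The library with the next highest Fos of the 17 was the right ELE library TG9.1.3 at 24.5 CPM, which had 1.61 CPM of Trh but 5.82 CPM of Npy. Nptx2 and Inhba, which encode a synaptic pentraxin and an activin subunit, were chosen after their values were seen. Nptx2 was 892, 319 and 133 CPM in NT6.304, TG9.1.4 and TG9.1.1, and Inhba was 88.2, 37.2 and 20.9 CPM. Other libraries exceeded TG9.1.1 for both, with 135 CPM of Nptx2 in TG7.3.1 and 30.2 and 25.6 CPM of Inhba in NT7.2.3 and TG9.2.1. Of the 35 activity-regulated genes, 9 were at 2 times their median or more in TG9.1.4, and only Inhba was in TG9.1.1. Npas4, named after its values were seen and induced within minutes of depolarisation, was 139 CPM in NT6.304 but 1.41 CPM in TG9.1.4 and 1.26 CPM in TG9.1.1. The libraries with high Npy therefore differed in how many activity-regulated genes were high. In TG7.3.2 and NT6.305, where Trh was 9.01 and 4.71 CPM with Npy at 0.755 and 2.07 CPM, Fos was 11.4 and 13 CPM and Nptx2 77.2 and 89.3 CPM. Npas4 was 6.69 and 3.50 CPM there and Egr2, another early transcription factor gene, 3.34 and 2.47 CPM, and in TG7.3.2 both were above 2 times their median.

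**Figure D3:**
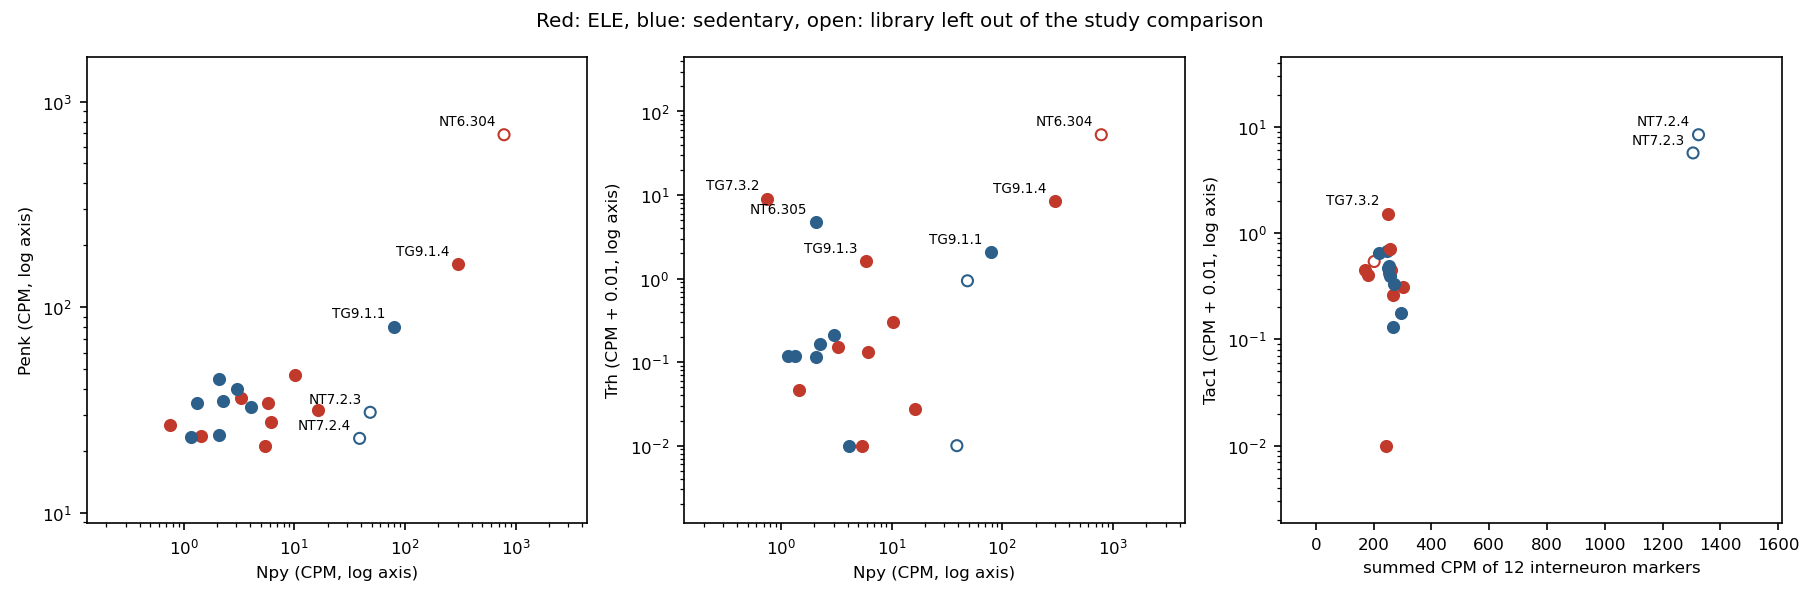
Levels of Penk against Npy and of Trh against Npy (log axes, CPM, with 0.01 added to Trh), and of Tac1 (CPM plus 0.01, log axis) against the summed CPM of 12 interneuron markers, 1 point per library, red for ELE, blue for sedentary and open for libraries outside the study's comparison. NT6.304, TG9.1.4 and TG9.1.1 are apart for Npy and Penk together, TG7.3.2 and NT6.305 combine 9.01 and 4.71 CPM of Trh with low Npy, and NT7.2.3 and NT7.2.4 stand alone at 5.68 and 8.43 CPM of Tac1.

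Pdyn (chromosome 2, 129686565 to 129699844, minus strand), the dynorphin precursor, was higher in each left ELE mouse than in each left sedentary mouse, in the comparison that chose the members. Among all genes tested on the left, 10.7% had groups that did not overlap, and nothing is read from the members there. Left ELE mice TG7.3.2, TG9.1.4 and TG9.2.2 had 10.6, 23.3 and 9.95 CPM and sedentary mice TG7.3.4, TG9.1.2 and TG9.2.4 had 9.54, 7.69 and 8.27 CPM. The left log2 fold change was 0.78 ± 0.31 (SE) and 0.28 without TG9.1.4. On the right, Pdyn was 11.3, 8.18 and 4.14 CPM in ELE and 13.9, 7.95 and 7.96 CPM in sedentary mice (-0.34 ± 0.34, edgeR, unadjusted p = 0.348, adjusted p = 1.0). In SIT it was 9.40, 12.2 and 14.2 CPM in ELE and 15.4 and 11.4 CPM in sedentary libraries (-0.17 ± 0.22, edgeR, unadjusted p = 0.456, adjusted p = 0.998). Both right and SIT groups overlapped. NT6.304 had 49.6 CPM, 4.83 times the median of the 20 libraries.

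Tac1 (chromosome 6, 7554879 to 7565834, plus strand), the substance P precursor, and Crh (chromosome 3, 19693401 to 19695396, minus strand) were low. Tac1 was 0 to 1.52 CPM in the 17 libraries and 5.68 and 8.43 CPM in NT7.2.3 and NT7.2.4. Sedentary SIT libraries NT6.305 and NT6.306 had 0.670 and 0.635 CPM and the ELE libraries 0.390, 0.441 and 0.439 CPM, groups that did not overlap but lay close together (-0.62 ± 0.84, edgeR, unadjusted p = 0.476, adjusted p = 0.999). With all 8 SIT libraries the difference was -3.10 (edgeR, unadjusted p = 0.00274, adjusted p = 0.403), and the 2 added sedentary libraries were those with the high interneuron, microglia and oligodendrocyte marker sums. On the left Tac1 was 1.52, 0.704 and 0 CPM in ELE mice TG7.3.2, TG9.1.4 and TG9.2.2, and 0.486, 0.167 and 0.122 CPM in sedentary mice. Its right levels were 0.25 to 0.411 CPM in ELE and 0.323 to 0.460 CPM in sedentary mice (-0.27 ± 0.63, edgeR, unadjusted p = 0.675, adjusted p = 1.0). Crh ranged from 0 to 0.878 CPM in the 17 libraries, with the highest value in TG7.4.2, and was 2.30 and 0.698 CPM in NT7.2.3 and NT7.2.4. It did not pass the filter on the left. In SIT it was 0.170, 0.0734 and 0.878 CPM in ELE libraries NT6.303, TG7.4.1 and TG7.4.2 and 0.172 and 0.231 CPM in sedentary libraries NT6.305 and NT6.306, so that only TG7.4.2 was above the sedentary libraries. The SIT difference was 0.88 ± 1.38 (edgeR, unadjusted p = 0.537, adjusted p = 0.999) and -1.30 with all 8 SIT libraries, and without TG7.4.2 Crh did not pass the filter. The right difference was -1.02 ± 1.40 (edgeR, unadjusted p = 0.482, adjusted p = 1.0).

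Nts (chromosome 10, 102481756 to 102490486, minus strand), the neurotensin precursor, had a lower mean in ELE than in sedentary mice in SIT and on the right, and was called where both were fitted together. In SIT it was 2.68, 2.17 and 2.29 CPM in ELE and 2.91 and 4.29 CPM in sedentary libraries, which did not overlap (-0.60 ± 0.32, edgeR, unadjusted p = 0.0864, adjusted p = 0.932). On the right it was 2.15, 2.80 and 3.37 CPM in ELE mice TG7.3.1, TG9.1.3 and TG9.2.1 and 2.74, 3.48 and 5.23 CPM in sedentary mice TG7.3.3, TG9.1.1 and TG9.2.3 (-0.46 ± 0.29, edgeR, unadjusted p = 0.146, adjusted p = 1.0). The right groups overlapped. Fitting SIT and right libraries together gave -0.52 ± 0.21 (edgeR, unadjusted p = 0.0246, adjusted p = 0.836). It was -0.38 without TG9.2.3 (edgeR, unadjusted p = 0.0974), -0.40 without NT6.306 (edgeR, unadjusted p = 0.106) and -0.45 without TG7.3.1 (edgeR, unadjusted p = 0.0598), none of which passed. Blocked by mouse-number prefix (TG7.3, for example), it was -0.43 (edgeR, unadjusted p = 0.0584) and was not called either. On the left the levels were 4.23, 2.28 and 3.38 CPM in ELE and 3.80, 1.93 and 3.38 CPM in sedentary mice, with a log2 fold change of 0.13 ± 0.33 (SE).

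Cck (chromosome 9, 121489824 to 121495694, minus strand) and Cartpt (chromosome 13, 99898489 to 99901091, minus strand) did not differ by more than the spread between mice in the comparisons tested, with all their libraries. Cck, the steadiest member, was 335, 341 and 447 CPM in SIT ELE libraries and 414 and 420 CPM in SIT sedentary libraries (-0.16 ± 0.13, edgeR, unadjusted p = 0.242, adjusted p = 0.978). Without TG7.4.2 the SIT value was -0.31 (edgeR, unadjusted p = 0.0022, adjusted p = 0.283), short of the threshold on fold change. On the right Cck was 384, 411 and 354 CPM in ELE and 381, 373 and 325 CPM in sedentary mice (0.09 ± 0.10, edgeR, unadjusted p = 0.352, adjusted p = 1.0). Its highest level was 1.22 times its median over the 17 libraries, against 91.9 times for Npy. Cartpt ranged from 0.571 CPM in TG9.1.1 to 2.23 CPM in TG7.3.2, with differences of -0.07 ± 0.45 in SIT (edgeR, unadjusted p = 0.884, adjusted p = 0.999) and -0.26 ± 0.50 on the right (edgeR, unadjusted p = 0.616, adjusted p = 1.0). In the left hippocampus the log2 fold change was -0.10 ± 0.07 for Cck and -0.00 ± 0.46 for Cartpt (SE).

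**Figure D4:**
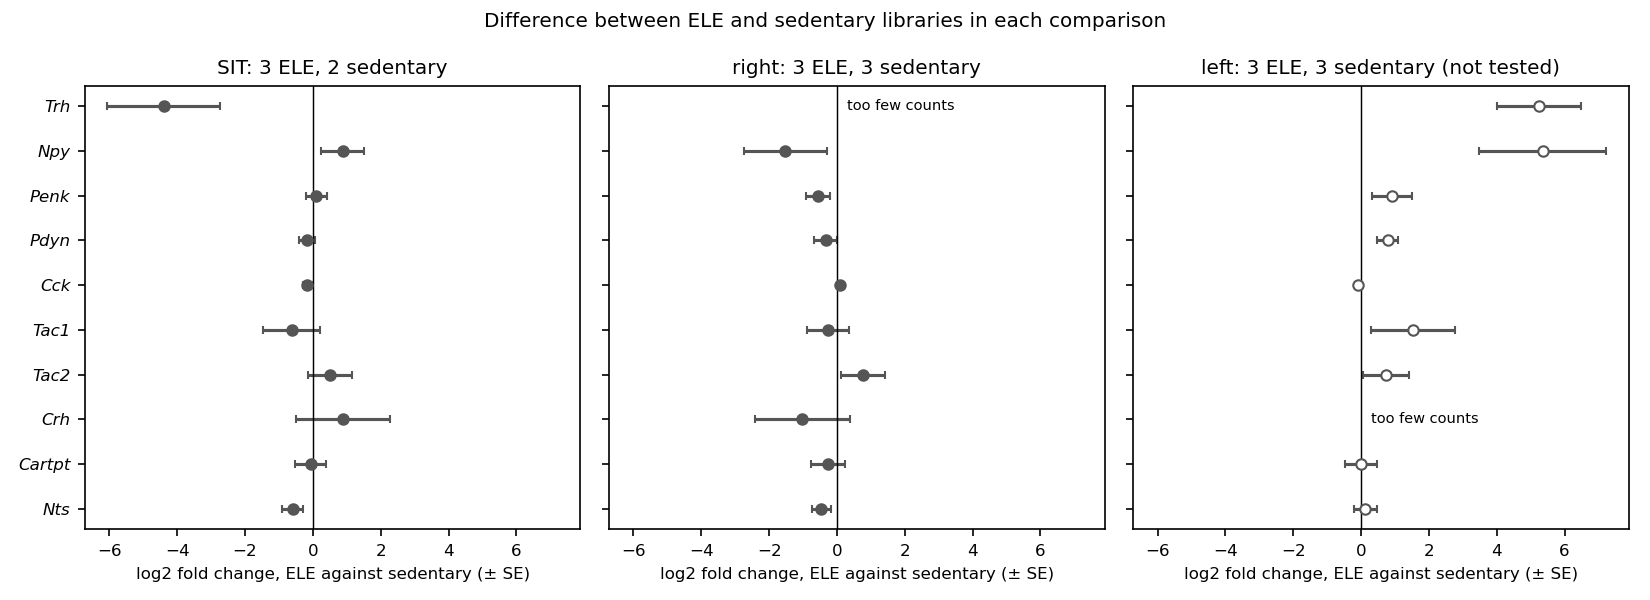
Log2 fold change of ELE against sedentary libraries with its standard error for each precursor in SIT (3 ELE, 2 sedentary), right and left (3 and 3), filled where the value was tested and open on the left, where it was not. Trh stands at -4.39 in SIT and 5.24 on the left, and Cck lies near 0 in all 3.

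Genes were called at an unadjusted p under 0.05 with a change of more than about 1.3-fold, as the study's methods set. Earlier results of these libraries were known when the members were chosen, so the shares of members called below describe them and are no independent test. In SIT, 1 of the 10 members was called, Trh, against 3.65% of all 18238 genes tested. Groups did not overlap for 2 members, Nts and Tac1, against 22.1% of all genes. On the right, 0 of the 9 members tested were called against 1.97% of 17570 genes, with 0 at an unadjusted p under 0.05 by edgeR and 0 by DESeq2. Groups overlapped for all 9, against 7.66% of genes whose groups did not. With SIT and right together 1 of 10 was called, Nts, against 2.83% of 19539 genes. With the block Nts was not called, and Pdyn (-0.43, edgeR, unadjusted p = 0.0232) and Tac2 (1.40, edgeR, unadjusted p = 0.0162) were. No member passed an adjusted p under 0.05 in these comparisons by edgeR with the filter on low counts or by DESeq2. The median log2 fold change of the members tested was -0.11 in SIT and -0.34 on the right, against 0.001 and -0.005 over all genes tested. On the left 2.07% of 17750 genes were called, and the members were not counted because that comparison chose them. The effect of exercise was not shown to differ between SIT and right for any member (interaction in edgeR, lowest unadjusted p = 0.117, for Trh, adjusted p = 1.0). Between the isolations themselves 1 of 10 members was called, Pdyn, against 13.7% of genes. Pdyn was 9.40 to 15.4 CPM in SIT and 4.14 to 13.9 CPM in right libraries, a log2 fold change of 0.53 ± 0.22 for SIT (edgeR, unadjusted p = 0.0306, adjusted p = 0.121). It was no longer called without each of TG7.4.1, TG7.4.2, NT6.305, TG9.2.1, TG9.1.1 and TG9.2.3 in turn, with values from 0.37 to 0.51.

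Across the 17 libraries, after group means were subtracted from log2(CPM + 0.5), Penk went with Npy (Pearson r = 0.93, Spearman rho = 0.84) and with Tac2 (r = 0.92, rho = 0.88). Without TG9.1.4 and TG9.1.1 these were 0.83 and 0.88. Npy and Tac2 had r = 0.84, and 0.71 without those libraries. Trh did not go with Npy (r = 0.32, and -0.05 without them) and was nearest to Tac1 among the members (r = 0.65, rho = 0.48). Pdyn and Nts ran opposite to each other (r = -0.64). The other pairs described include Cck with Crh (r = 0.69, rho = 0.60) and Tac2 with Cartpt (r = -0.70). TG7.4.2 was the highest of the 17 libraries for both Cck and Crh. Trh, Tac1 and Crh sat near the limit of detection, so pairs with them rest on few counts. All these points share their libraries, so that depth, dissection and RNA quality enter both genes of a pair, and they describe 17 mice only.

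Among all genes of at least 1 CPM on average, those most like Npy were Mfsd12, Stk40 and Adra2c (r = 0.98 each, 0.96 without the 2 libraries farthest from the median). Nearest to Penk were Fam167a (r = 0.98), Eif4g2 (0.97) and Uck2 (0.96). Nearest to Tac2 were Acvr1c and Glce (0.95 each) and Pcsk5 (0.94), of which Pcsk5 encodes a proprotein convertase. Trh was nearest to Krt77 (0.92), Nwd2 (0.89) and Ntn3 (0.88), with 0.89, 0.87 and 0.84 when NT6.305 and TG9.2.2 were left out. Pdyn was nearest to Prrt3 (0.93), Cplx1 and Gm10073 (0.91 each), Cck to Slc9a3r1, Lrrc4b (0.93 each) and Mmp14 (0.92), Cartpt to Egln2 (0.92), March2 (0.90) and Nqo2 (0.89), and Nts to 1700019D03Rik (0.93), Tpd52 (0.89) and Etv1 (0.87). Tac1 and Crh were below 1 CPM on average and were left out. These were the top 3 of many genes over 17 libraries and describe a shared pattern.

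The receptors through which these peptides act were measured in the same libraries. Of 18 receptor genes, 14 were tested in SIT and 3 were called against 3.65% of all genes. Cckbr, the main brain cholecystokinin receptor, was 6.3, 6.33 and 5.04 CPM in ELE and 12 and 10.1 CPM in sedentary SIT libraries, without overlap (-0.91 ± 0.21, edgeR, unadjusted p = 0.00139, adjusted p = 0.905). Npy1r, a neuropeptide Y receptor, was 28.2, 31.5 and 34.4 CPM in ELE and 24 and 23.8 CPM in sedentary libraries (0.39 ± 0.14, edgeR, unadjusted p = 0.0212, adjusted p = 0.905). This was barely past the threshold on fold change, and it was not called without TG7.4.2 (0.32), NT6.305 (0.40) or NT6.306 (0.39), nor with all 8 SIT libraries (0.17). Trhr, the receptor for Trh, was 5.18, 3.36 and 3.28 CPM in ELE and 9.82 and 4.08 CPM in sedentary libraries (-0.82 ± 0.37, edgeR, unadjusted p = 0.0494, adjusted p = 0.906). The groups overlapped, and without NT6.305 the value was -0.05 (edgeR, unadjusted p = 0.899). Trhr was also not called without TG7.4.1 or TG7.4.2 (-0.71 each), with all 8 SIT libraries (-1.16) or by DESeq2 (-0.82), whereas Cckbr was called in each of these settings. The highest Trhr levels of the 20 libraries were 10.5 CPM in TG7.3.2 and 9.82 CPM in NT6.305, the same libraries that had much Trh with little Npy, while NT6.304, the highest for Trh, had 0.531 CPM. With SIT and right together 0 of 17 receptors were called by edgeR against 2.83% of genes. On the right 0 of 14 were called by edgeR against 1.97% of genes, and Cckbr was 5.95, 11 and 7.48 CPM in ELE and 8.43, 4.69 and 8.01 CPM in sedentary mice (0.22 ± 0.28, edgeR, unadjusted p = 0.455, adjusted p = 1.0). Npy2r, a presynaptic neuropeptide Y receptor, was lowest in the 3 libraries with the most Npy, with 10.2, 16.3 and 20.6 CPM in NT6.304, TG9.1.4 and TG9.1.1 against 22.6 to 54.7 CPM elsewhere. In NT7.2.3 and NT7.2.4, which followed for Npy, it was 40.8 and 54.7 CPM, the latter the highest of the 20 libraries. NT6.304, TG9.1.4 and TG9.1.1 were high for Oprd1, the delta opioid receptor, with 13.8, 18.4 and 15.3 CPM, but TG9.2.1 and NT7.2.3 were as high at 14.4 and 14.0 CPM. The kappa and mu opioid receptor genes Oprk1 and Oprm1 reached at most 1.27 and 0.68 CPM, both in libraries of the NT7.2 mice.

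Other genes of the same system were given by list. Of 53 other neuropeptide precursors, 25 were tested in SIT and 0 were called by edgeR against 3.65% of genes. On the right 1 of 21 was called against 1.97%, Avp, the vasopressin precursor. It was 0.483, 0.822 and 0.357 CPM in ELE and 0.131, 0.102 and 0.216 CPM in sedentary mice. Avp passed the filter on low counts through the ELE libraries, so nothing is read from its call. With SIT and right together 4 of 27 were called against 2.83% of genes. Nmb and Npb were higher and Edn3 lower in ELE, with log2 fold changes of 0.69 for Nmb, 1.83 for Npb and -2.35 for Edn3, and Rln3 was the remaining call. Npb, Rln3 and Edn3 stayed below 1 CPM in the 17 libraries. Rln3 was at 0 in 4 of the 5 sedentary libraries and at most 0.286 CPM in ELE, so that it passed the filter through the ELE libraries. No fold is given and nothing is read from its call. Of the 35 activity-regulated genes, 6 were called in SIT, all higher in ELE (Arc, Bdnf, Dusp5, Junb, Nr4a1 and Ptgs2), against 3.65% of all genes in either direction. On the right 6 were called, all higher (Egr1, Egr2, Egr4, Fos, Nr4a1 and Ptgs2), against 1.97%. With SIT and right together 9 were called, all higher, against 2.83%. Nr4a1, an orphan nuclear receptor, had a log2 fold change of 0.74 ± 0.18 in SIT (edgeR, unadjusted p = 0.00232, adjusted p = 0.905) and 0.50 ± 0.18 on the right (edgeR, unadjusted p = 0.0220, adjusted p = 1.0). The median of the list was 0.24 in SIT and 0.25 on the right against 0.001 and -0.005 over all genes tested. The activity-regulated list was chosen with earlier results of these data known. Its calls and medians are therefore a description and no independent test. How far these calls, that of Nr4a1 among them, rested on single libraries was not examined.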

How the data were processed

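TRAP-seq libraries of 20 mice were used, 8 from SIT and 12 from separate isolation. According to the methods and processing notes, the authors prepared directional poly(A) libraries, aligned paired reads to GRCm38.p6 with STAR 2.7.3a, removed duplicates with Picard 1.87 and counted reads per gene with strand. The deposited table holds these raw counts for 55335 genes, without normalization, and 55154 identifiers matched a symbol. Duplicate removal can lower the counts of very abundant transcripts.

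Counts were scaled by TMM, filtered with filterByExpr and tested with the quasi-likelihood test of edgeR 4.0.16 (R 4.3.3) over all genes, with Benjamini-Hochberg adjustment. SIT, right and left libraries were fitted separately, and SIT and right together with isolation as a term. A gene was called at an unadjusted p under 0.05 with a change of more than about 1.3-fold, the study's thresholds. DESeq2 1.42.0, RLE size factors, no filter, each library left out, all 8 SIT libraries and a block were the alternatives. The test was checked on simulated counts with 200 changed genes. The members and lists were chosen with earlier results of these data known. Named genes of the lists were those called in SIT, right or both together and receptors of the members, and Nptx2, Inhba and Npas4 were added after their values were seen, and the genes most like a member were the 3 with the highest r. Each group member is a mouse, and replicate libraries differed by more than counting noise in all 24 pairs.

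Columns carry mouse numbers. Hemisphere was taken from the study's mouse list, since the order of the columns set against the order of the samples would exchange left and right. The 24 columns of a table of wild-type mice were not used.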

Additional observations from a re-analysis of the deposited data

Results flagged for a closer look

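In the SIT ELE group of 4 libraries, NT6.304 lay so far above the other 3 that its gap to the nearest passed Dixon's limit for 4 genes. Trh was 52.7 CPM there against 0 to 0.289 CPM, and Npy was 785 CPM against 1.45 to 10.2 CPM. Penk was 690 CPM against 21.2 to 47.0 CPM, and Pdyn was 49.6 CPM against 9.40 to 14.2 CPM. Of 20 groups of 4 samples checked, these 4 passed. The limit would flag about 1 in 20 if values were normal and groups independent. These levels are skewed and the groups share the same SIT libraries, so that rate does not apply here. All 4 come from the same library, which the study had left out of its comparison and in which 28 of 35 activity-regulated genes were at 2 times their median or more. Cck at 386 CPM and Nts at 2.89 CPM were within the range of the other libraries in NT6.304. The part of this library's activity-regulated genes in its neuropeptide levels was not tested.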

How the results depend on the processing

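The log2 fold changes and counts of called genes below are given where the direction or the count changed, and the cause was not tested. Pairing by the labels' replicate numbers was not possible because the columns carry mouse numbers, so the first part of the mouse number was used as a block instead. Mice that share the first part of their number did not all deviate together (correlations of 0.272, 0.0255 and 0.129 on the left, and 0.296, -0.104 and -0.127 on the right). With that part as a replicate block, 301 genes were called on the right, 314 on the left and 456 in SIT and right together, and Npy turned to 1.09 on the right and 1.42 in SIT and right together. In the same block fit of SIT and right together, Nts was -0.43 and no longer passed.

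When low counts were not filtered out, 715 genes passed on the right, 691 on the left and 988 in SIT and right together, against 347, 367 and 553. Without that filter Trh in SIT had an adjusted p of 8.61e-06 (edgeR), and Trh and Npy in SIT and right together had 0.0137 and 0.035. With all 8 SIT libraries 1350 genes were called in SIT against 665, and 1043 in SIT and right together. In that setting the SIT values turned to 3.23 for Trh, 1.0 for Pdyn and -1.30 for Crh, and those of Npy and Penk rose from 0.88 to 3.09 and from 0.11 to 2.81. Those of SIT and right together turned to 1.85 for Trh, 1.26 for Npy, 1.41 for Penk, 0.43 for Pdyn and 0.01 for Cck. The isolation values turned to 2.59 for Trh, 1.81 for Npy, 0.82 for Penk and 0.41 for Tac2. With NT6.304 added and NT7.2.3 and NT7.2.4 still left out, a setting chosen after seeing the data, SIT gave 2.48 for Trh, 0.66 for Pdyn, 6.01 for Npy and 2.77 for Penk. SIT and right together then gave 1.03 for Trh, 0.74 for Npy, 0.81 for Penk and 0.13 for Pdyn, and isolation gave 3.35, 2.32 and 1.39 for Trh, Npy and Penk.

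Leaving out each library in turn moved the count of called genes between 355 (without NT6.305) and 1086 (without TG7.4.2) in SIT, between 308 and 643 (without TG9.1.1) on the right, and between 220 (without TG7.3.4) and 945 (without TG7.3.2) on the left, with 810 without TG9.2.2. SIT values that changed sign ranged from -5.38 to 5.59 for Trh, -0.34 to 0.35 for Penk (-0.10 without NT6.305), -0.37 to 0.06 for Pdyn, -0.41 to 1.42 for Tac2 and -0.33 to 0.25 for Cartpt (0.16 without TG7.4.1). On the right they ranged from -2.17 to 2.90 for Npy and -0.87 to 0.10 for Penk. In SIT and right together they ranged from -3.97 to 0.31 for Trh, -0.99 to 1.80 for Npy, -0.47 to 0.11 for Penk, -0.06 to 0.02 for Cck and -0.90 to 0.23 for Crh (0.03, 0.21 and 0.05 without TG7.3.1, TG7.3.3 and TG9.1.1). For isolation they ranged from -3.13 to 1.29 for Trh (0.16 and 0.22 without TG7.4.1 and TG7.4.2), -2.25 to 0.02 for Npy, -0.85 to 0.07 for Tac2 and -0.00 to 1.41 for Crh. Where a group was left with 1 library, its spread was taken from the other groups. Across single-gene results and settings, 513 were counted as kept, 50 tested values reversed, 14 lost and 23 gained the threshold, and 8 untested left values moved by more than the spread. Tested values counted as kept had the same direction and side of the threshold. Untested left values counted as kept moved by less than the spread, whatever their direction. Left Nts, at -0.12 without TG9.1.2, was 1 of these. Tac1, Crh and Trh are limited by depth, with 3 counts or fewer in 1, 3 and 4 of the 17 libraries.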

Other observations

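Among the markers of cells outside the excitatory lineage, the choroid plexus genes Clic6, Folr1 and Kl were called lower in ELE in SIT, 3 of 5 against 3.65% of all genes, and the same genes with Ttr on the right, 4 of 5 against 1.97%. On the right the summed level of the 5 genes was 43.8, 17.3 and 29.7 CPM in ELE mice TG7.3.1, TG9.1.3 and TG9.2.1, and 35.5, 84.6 and 1157 CPM in sedentary mice TG7.3.3, TG9.1.1 and TG9.2.3, so that 1 sedentary library stood far above the rest and the groups overlapped. Dentate granule cell markers Dsp, Lct and Prox1 were called higher in SIT, 3 of 5 against 3.65%, and 0 of 5 were called on the right by edgeR. Interneuron markers Dlx1, Dlx2 and Pvalb were called lower in SIT, 3 of 12 against 3.65%, and 1 of 11, Slc32a1, was called higher on the right against 1.97%. Their part in the neuropeptide values was not tested.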
